A study of Mus musculus with 20 samples.

Results

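The genes described here are 10 transcripts of the hepatocytes around the central vein whose expression is known to depend on Wnt signalling, namely Glul, Oat, Rhbg, Slc1a2, Axin2, Rnf43, Znrf3, Lgr5, Tbx3 and Lect2. They were taken by gene symbol from a table of liver read counts that holds 48440 genes. All 10 were present and all 10 passed the filter on low counts, which left 16071 genes for testing. The livers came from female wild-type mice (C57BL/6 by the labels, C57BL/6J by the study's methods) that were 8 weeks old at the start and were treated for 5 weeks, with 5 livers in each of 4 groups and 1 library per liver. Isotype + Vehicle mice were injected with an IgG2a isotype control antibody and drank water with the ethanol vehicle. Isotype + CORT mice received the same isotype control antibody and corticosterone (CORT), the main glucocorticoid of rodents, at 100 µg per ml of drinking water. αACBP + Vehicle mice received a neutralizing monoclonal antibody against ACBP/DBI (acyl coenzyme A binding protein, also called diazepam binding inhibitor) at 5 mg per kg and vehicle in the water. αACBP + CORT mice received that antibody together with CORT. The comparisons ask how a glucocorticoid excess that models Cushing's syndrome changes the liver, and how neutralization of ACBP/DBI changes it with and without CORT.

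The liver lobule is divided into zones along the path of the blood from the portal tract to the central vein. Endothelial cells of the central vein secrete Wnt ligands and R-spondins, and the hepatocytes next to them respond through β-catenin by expressing a pericentral set of genes. In this zone ammonia that escaped the periportal urea cycle is bound into glutamine by glutamine synthetase, the product of Glul. Oat encodes ornithine aminotransferase, which feeds glutamate into that reaction, Slc1a2 encodes a glutamate transporter, and Rhbg encodes an ammonium transporter. Axin2, Rnf43 and Znrf3 are feedback inhibitors of the pathway, Lgr5 is a receptor for R-spondins, Tbx3 is a transcription factor, and Lect2 encodes a secreted hepatocyte protein.

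The libraries held from 14934926 to 20299999 counts on genes, so that 3 counts correspond to between 0.145 and 0.205 CPM (counts scaled to a common library size, TMM-normalized) depending on the liver, a floor that covers counting error only. The livers carried the markers of their tissue, with all 7 hepatocyte markers of the table present in every group and Alb, the gene of serum albumin, at 74541 ± 15092 CPM in Isotype + Vehicle livers (mean ± SD, n = 5). Fkbp5, a glucocorticoid-induced chaperone gene used as a check of the treatment, rose with CORT under isotype from 39.3 ± 9.87 to 128 ± 40.0 CPM (log2 fold change 1.70, SE 0.26, adjusted p = 0.000722, edgeR's quasi-likelihood test). The other 5 of the 6 genes of the glucocorticoid list had lower values in that comparison, with log2 fold changes from -1.16 (Per1) to -0.24 (Sgk1), and none of them was called. Under αACBP, Fkbp5 was at 63.0 ± 24.2 CPM with vehicle and at 76.8 ± 19.8 CPM with CORT. None of the 6 genes was called for CORT under αACBP by edgeR, with 2 higher and 4 lower, so the check of the treatment was not passed there. A pair of livers stood apart from their groups. Isotype + Vehicle replicate 4 had the lowest total, 4.84% of its read pairs were not aligned, and it was the lowest of its group for 7 of the 10 genes. αACBP + Vehicle replicate 5 had the highest share not aligned, 5.75%, the lowest mean correlation with the livers of its own group, 0.874, and the lowest level of its group for 4 of the 10. Some of these values were not unusual among the 20 livers. The mean correlation of Isotype + Vehicle replicate 4, 0.909, was the lowest of its group but above the 0.893 of Isotype + CORT replicate 1. Isotype + CORT replicate 3 was the lowest of its group for 5 of the 10 genes. Calls that were lost without both livers that stood apart are named beside the gene, and Fkbp5 kept its call with CORT under isotype (log2 fold change 1.56, adjusted p = 0.00305, edgeR).

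Promoter sequences are shown for genes on which the comparisons below turn and for those that hold a motif of the TCF/LEF factors, the DNA-binding partners of β-catenin. The RefSeq promoter table (GRCm38.p6) matched 6 of the 10 genes, Glul, Oat, Axin2, Slc1a2, Lect2 and Rnf43, with 7 promoters in all. The 250 bases before each start were placed in GRCm39 by exact match, and the part outside annotated exons is printed 5′ to 3′ along the gene. The motif searched was CTTTGAT on both strands, which reads ATCAAAG on the other strand and is marked in capitals. It was found in 2 of the 7 promoters, at -207 before the start of Slc1a2 and at -32 before that of Lect2, and in 3.21% of the 32851 promoters of the table. These letters were not in the Axin2 and Rnf43 windows. The starts are those of the RefSeq table. For each printed window, Slc1a2, Lect2, Axin2 and Rnf43, the start lies inside the annotated span of the gene, downstream of its first base. The printed Slc1a2, Lect2 and Rnf43 stretches lie within that span, and the Axin2 stretch ends just before it.

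Slc1a2, chr2:102536533-102536700, plus strand: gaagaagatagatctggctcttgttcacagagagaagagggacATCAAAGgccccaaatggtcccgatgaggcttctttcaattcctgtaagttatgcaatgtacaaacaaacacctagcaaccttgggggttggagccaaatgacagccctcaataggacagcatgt
Lect2, chr13:56696361-56696503, minus strand: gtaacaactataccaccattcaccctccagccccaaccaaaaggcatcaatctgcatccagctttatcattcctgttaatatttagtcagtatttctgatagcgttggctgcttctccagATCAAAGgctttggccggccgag
Axin2, chr11:108810925-108811168, plus strand: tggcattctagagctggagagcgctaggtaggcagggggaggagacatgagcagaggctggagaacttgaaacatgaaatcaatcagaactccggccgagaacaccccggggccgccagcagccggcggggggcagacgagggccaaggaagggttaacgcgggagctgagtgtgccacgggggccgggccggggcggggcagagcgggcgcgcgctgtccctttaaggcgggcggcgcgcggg
Rnf43, chr11:87590473-87590722, plus strand: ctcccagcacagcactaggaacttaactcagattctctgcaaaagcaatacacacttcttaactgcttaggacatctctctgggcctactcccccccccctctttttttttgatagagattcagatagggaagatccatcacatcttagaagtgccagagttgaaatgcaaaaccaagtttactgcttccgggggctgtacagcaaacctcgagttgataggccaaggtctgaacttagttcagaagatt

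In GRCm39 with the GENCODE M39 annotation, Glul lies at chr1:153775690-153785469 and Oat at chr7:132159153-132191517. Slc1a2 lies at chr2:102488574-102621129 and Rhbg at chr3:88150181-88162043. The feedback inhibitors are Axin2 at chr11:108811169-108841609, Rnf43 at chr11:87553548-87626377 and Znrf3 at chr11:5226324-5394939. Lgr5 lies at chr10:115286216-115423685, Tbx3 at chr5:119806298-119822797 and Lect2 at chr13:56684477-56696569. The values are sums over all exons of a gene. Of the exon bases of Rhbg, 59.3% are shared on the same strand with the predicted gene Gm38392, so the Rhbg level is uncertain. The strand setting of the counting was not stated, so reads of Tbx3, Lect2, Rnf43 and Lgr5 cannot be told apart from those of the opposite-strand genes that overlap 18.3%, 33.5%, 8.07% and 7.30% of their exon bases.

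Across the 20 livers the genes covered a wide range of levels. Per kilobase of exon, Glul was the most abundant with a mean of 213 CPM, followed by Oat with 98.1 and Lect2 with 83.1. Slc1a2 came next at 11.2 CPM per kilobase, Tbx3 at 6.25, Rnf43 at 4.84 and Axin2 at 2.44. Znrf3 at 1.19, Lgr5 at 0.881 and Rhbg at 0.491 CPM per kilobase were the lowest. Raw counts per liver ran from 8500 to 23865 for Glul and from 57 to 311 for Lgr5, while Rhbg had between 0 and 54 counts, so its values carry a large counting error. In whole-liver RNA, fewer pericentral cells and less RNA per cell cannot be told apart for any of them.

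**Figure D1:**
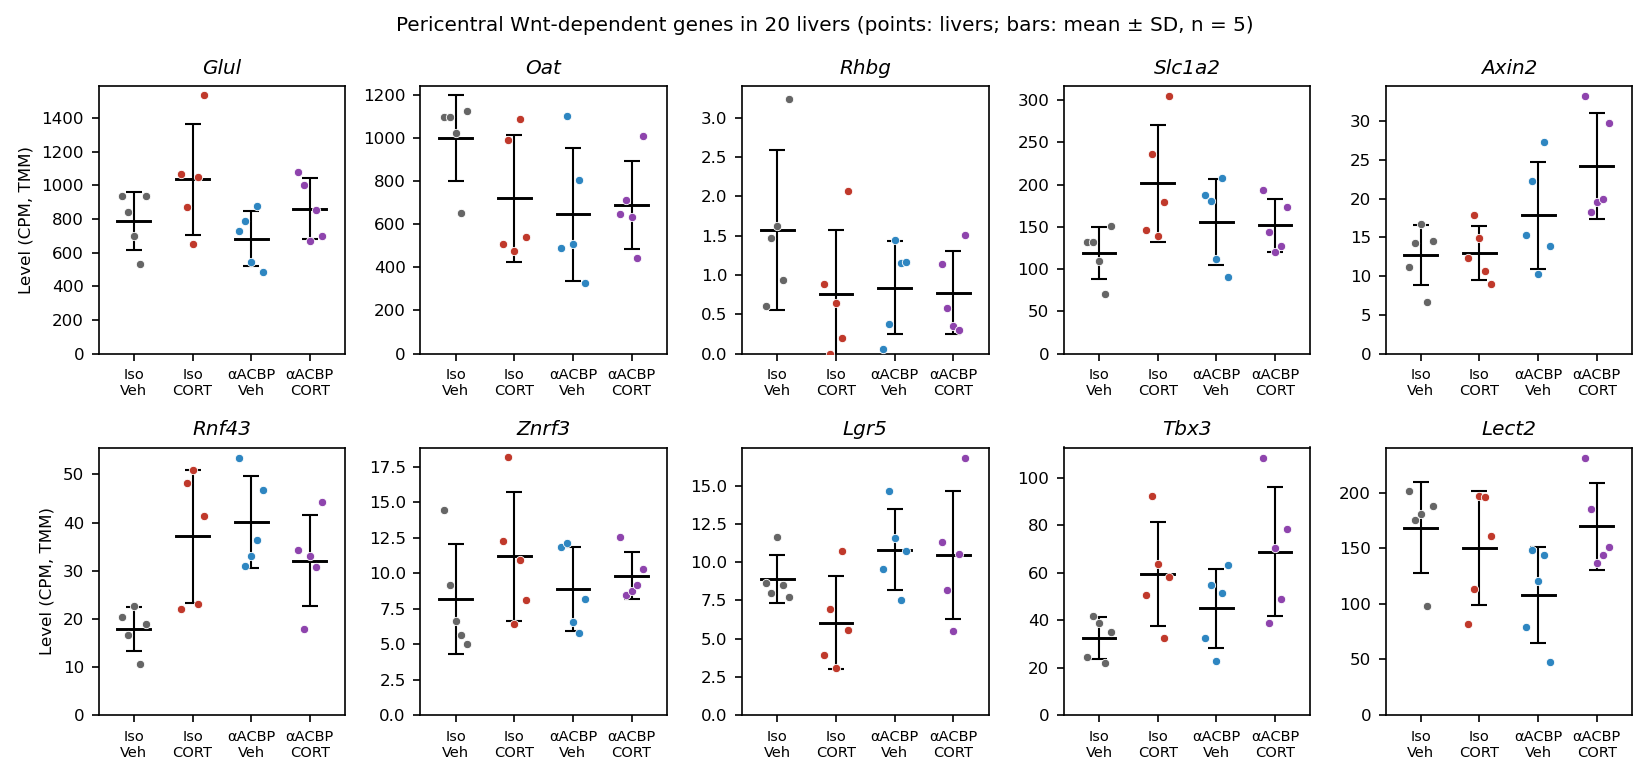
Level of each gene (CPM, linear axis from 0, a separate scale per gene) in the 20 livers, with points for livers and black bars for the mean ± SD of each group (n = 5). Rnf43 was between 10.5 and 22.6 CPM in the Isotype + Vehicle livers and between 31.0 and 53.4 CPM in the αACBP + Vehicle livers. The mean of Axin2 was highest in the αACBP + CORT livers, which overlapped the αACBP + Vehicle livers, and no comparison of Axin2 was called by edgeR.

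Changes were called where the p adjusted over all tested genes (Benjamini-Hochberg) was 0.05 or less and the log2 fold change was 1 or more in size. By edgeR, Rnf43 was the 1 gene of the 10 called in any comparison. CORT under isotype changed 1 of the 10, Rnf43, which rose, against 1.94% of all genes tested. αACBP under vehicle changed 1 of the 10, again Rnf43 and again upwards, against 1.30% of all genes. Each count is a single gene, and nothing is read from it for the 10 genes as a group. None of the 10 was called for αACBP against isotype under CORT (0.597% of all genes called), for CORT under αACBP (0.212%), for αACBP + CORT against Isotype + Vehicle (0.0684%) or for the interaction of both treatments (0.143%) by edgeR. At an unadjusted p of 0.05 without a limit on the fold change, 2, 1, 3 and 3 of the 10 passed in these 4 comparisons, against 12.5%, 12.7%, 7.59% and 10.6% of all genes. For CORT under isotype and for αACBP under vehicle, 3 of the 10 passed at that level in each, against 15.6% and 20.6% of all genes. By the Wald test of DESeq2, Tbx3 was called in the comparison of αACBP + CORT with Isotype + Vehicle (log2 fold change 1.08, adjusted p = 0.0360, 0.348% of all genes called), and Rnf43 in the interaction (-1.41, adjusted p = 0.0232, 1.16% of all genes called). Without both livers that stood apart neither was called by DESeq2, with Tbx3 at 0.96 (adjusted p = 0.0689) and Rnf43 at -1.19 (adjusted p = 0.0815). The median log2 fold change of the 10 was 0.21 for CORT under isotype, -0.01 for αACBP under CORT, 0.12 for CORT under αACBP and 0.20 for αACBP under vehicle, where the medians of all genes tested were 0.0022, 0.011, 0.0067 and -0.019. These comparisons share groups, so their values are not independent of one another.

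**Figure D2:**
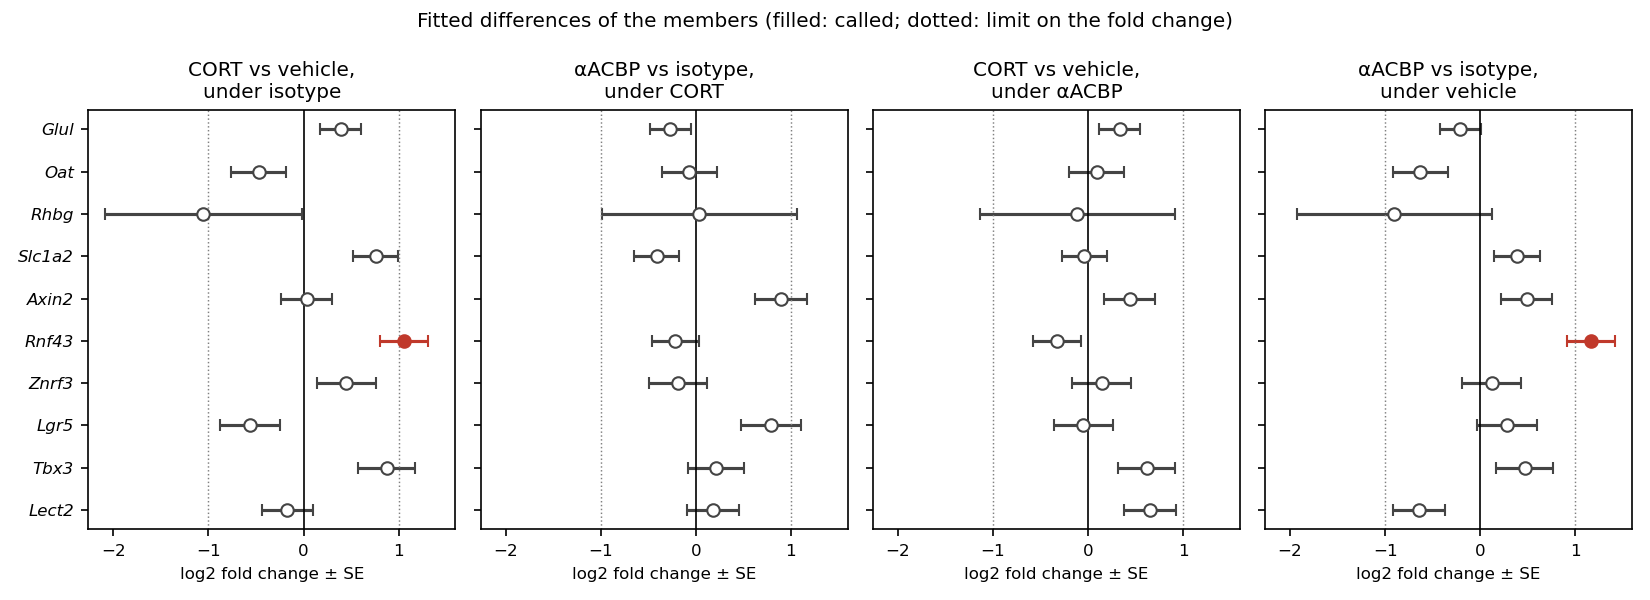
Fitted log2 fold changes of the 10 genes (x axis, points with bars of 1 SE, from 1 edgeR model of 20 livers) in the 4 comparisons that differ in 1 treatment, with filled red points for called genes and dotted lines at the limit of 1. Rnf43 is the called gene, at 1.06 for CORT under isotype and 1.17 for αACBP under vehicle, and the bars of Rhbg are the widest.

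Rnf43 encodes a membrane-bound ubiquitin ligase that removes Frizzled receptors from the cell surface and is itself switched on by Wnt signalling. In the Isotype + Vehicle livers it was measured at 20.4, 16.7, 22.6, 10.5 and 19.001 CPM. In the Isotype + CORT livers it was at 22.0, 48.2, 50.9, 23.1 and 41.4 CPM. In the αACBP + Vehicle livers it was at 53.4, 31.0, 33.1, 36.4 and 46.8 CPM, and in the αACBP + CORT livers at 34.3, 17.9, 33.1, 30.7 and 44.3 CPM. All 5 αACBP + Vehicle livers lay above all 5 Isotype + Vehicle livers, whereas the lowest Isotype + CORT liver lay just under the highest Isotype + Vehicle liver. Group means were 17.9 ± 4.63 CPM (Isotype + Vehicle), 32.0 ± 9.45 CPM (αACBP + CORT), 37.1 ± 13.8 CPM (Isotype + CORT) and 40.1 ± 9.60 CPM (αACBP + Vehicle), from low to high. Isotype + Vehicle and αACBP + CORT did not pass the test (log2 fold change 0.84, SE 0.25, adjusted p = 0.230, edgeR), and Isotype + CORT and αACBP + Vehicle were not compared.

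The rise of Rnf43 with CORT under isotype was 2.08-fold (log2 fold change 1.06, SE 0.25, adjusted p = 0.0181, edgeR). With αACBP under vehicle it was 2.25-fold (log2 fold change 1.17, SE 0.25, adjusted p = 0.0108, edgeR). Among livers given CORT, αACBP and isotype did not pass the test (log2 fold change -0.21, SE 0.25), and among livers given αACBP, CORT and vehicle did not either (-0.33, SE 0.25). The difference between the CORT effects under αACBP and under isotype was -1.38 on the log2 scale (SE 0.36, adjusted p = 0.0902, edgeR), which missed the threshold over all genes. The call with CORT under isotype was lost without Isotype + Vehicle replicate 2 (1.02, adjusted p = 0.0579, edgeR) or replicate 4 (0.91, adjusted p = 0.0597), and without Isotype + CORT replicate 2 (0.93, adjusted p = 0.0574) or replicate 3 (0.91, adjusted p = 0.0432). It was also lost without both livers that stood apart (0.90, adjusted p = 0.0648, edgeR), in a fit of only the 2 groups compared (1.05, adjusted p = 0.0511, edgeR) and with limma voom (0.83, adjusted p = 0.0580). The call with αACBP under vehicle held when any 1 liver was left out, with log2 fold changes from 1.03 to 1.26, and was under the limit on the fold change without both livers that stood apart (0.96, adjusted p = 0.0464, edgeR) and with limma voom (0.99, adjusted p = 0.00601).

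Znrf3, which encodes the related ligase with the same action on Frizzled, was lower and did not pass any test. Its levels were 14.5, 9.18, 6.60, 5.64 and 5.04 CPM in Isotype + Vehicle livers and 12.2, 18.2, 6.41, 10.95 and 8.12 CPM in Isotype + CORT livers. Livers given αACBP and vehicle had 11.8, 12.1, 6.58, 5.78 and 8.16 CPM, and the αACBP + CORT livers 12.6, 8.43, 8.73, 9.17 and 10.3 CPM. All 4 groups overlapped. Its log2 fold changes were 0.45 with CORT under isotype (SE 0.31) and 0.12 with αACBP under vehicle (SE 0.31), the comparisons in which Rnf43 was called. Whether Rnf43 and Znrf3 responded differently was not tested.

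Axin2 encodes a scaffold of the complex that degrades β-catenin and is widely read as a reporter of the pathway. Its levels were 11.2, 14.3, 16.7, 6.70 and 14.5 CPM in Isotype + Vehicle livers and 12.3, 17.9, 14.96, 10.7 and 9.02 CPM in Isotype + CORT livers. Under αACBP with vehicle the livers had 15.4, 22.3, 10.3, 27.4 and 13.9 CPM, and the αACBP + CORT livers 33.3, 18.3, 19.6, 19.99 and 29.8 CPM. The isotype groups were nearly level, with means of 12.7 ± 3.89 and 12.97 ± 3.51 CPM, αACBP + Vehicle was at 17.9 ± 6.88 and αACBP + CORT at 24.2 ± 6.84 CPM. Every αACBP + CORT liver lay above every liver of both isotype groups. Neither both isotype groups nor both αACBP groups differed by the test, and Isotype + CORT and αACBP + Vehicle, which differ in both treatments, were not compared.

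For Axin2 the log2 fold change of αACBP against isotype under CORT was 0.90 (SE 0.27, adjusted p = 0.111, edgeR), and it stayed between 0.76 and 1.04 when 1 liver was left out, with adjusted p from 0.0788 to 0.281. Against Isotype + Vehicle, αACBP + CORT livers were higher by 0.93 on the log2 scale (SE 0.27, adjusted p = 0.214, edgeR). CORT under isotype gave 0.03 (SE 0.27), a value whose sign changed with the setting. The interaction was 0.41 (SE 0.38, adjusted p = 0.796, edgeR), so a different CORT effect under αACBP was not shown.

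Lgr5 marks the hepatocytes that touch the central vein and takes up R-spondin signals that keep Frizzled at the surface. Isotype + Vehicle livers had 8.61, 7.95, 11.6, 8.52 and 7.73 CPM, and Isotype + CORT livers 3.90, 6.91, 3.04, 10.8 and 5.54 CPM. With αACBP and vehicle, livers had 9.55, 14.7, 11.6, 7.54 and 10.7 CPM, and the αACBP + CORT livers 11.3, 8.18, 5.51, 10.5 and 16.8 CPM. Isotype + CORT had the lowest mean (6.03 ± 3.03 CPM), with 4 of its 5 livers under every Isotype + Vehicle liver and 1 above most of them. The log2 fold change with CORT under isotype was -0.56 (SE 0.32, adjusted p = 0.418, edgeR), and that of αACBP under CORT was 0.80 (SE 0.32, adjusted p = 0.271), so neither passed. Remaining means were 8.89 ± 1.57 CPM in Isotype + Vehicle, 10.5 ± 4.20 in αACBP + CORT and 10.8 ± 2.63 in αACBP + Vehicle livers.

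Tbx3 encodes a T-box transcription factor of pericentral hepatocytes. Its levels were 24.6, 41.9, 38.6, 22.0 and 35.2 CPM in Isotype + Vehicle livers and 50.5, 92.5, 63.6, 32.3 and 58.4 CPM in Isotype + CORT livers. Livers given αACBP and vehicle had 32.4, 54.9, 22.7, 51.3 and 63.5 CPM, and the αACBP + CORT livers 109, 38.7, 70.3, 49.0 and 78.4 CPM. From low to high, the means were Isotype + Vehicle (32.5 ± 8.71 CPM), αACBP + Vehicle (45.0 ± 16.8), Isotype + CORT (59.5 ± 21.9) and αACBP + CORT (69.0 ± 27.3), and all groups overlapped. The log2 fold change with CORT was 0.87 under isotype (SE 0.30, adjusted p = 0.123, edgeR) and 0.62 under αACBP (SE 0.30, adjusted p = 0.397). Between αACBP + CORT and Isotype + Vehicle it reached 1.09 (SE 0.30, adjusted p = 0.194, edgeR).

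Glul, which encodes glutamine synthetase, had no called change. Its levels were 934, 844, 702, 532 and 936 CPM in Isotype + Vehicle livers and 1070.3, 869.8, 650.3, 1048 and 1538 CPM in Isotype + CORT livers. Under αACBP with vehicle the livers had 731, 786, 542, 875 and 484 CPM, and the αACBP + CORT livers 1082, 1004, 668, 851 and 700.4 CPM. All groups overlapped, and the means ran from 684 ± 165 CPM in αACBP + Vehicle to 1035 ± 328 CPM in Isotype + CORT livers. The log2 fold changes with CORT were 0.39 under isotype and 0.33 under αACBP (SE 0.22 for each, adjusted p = 0.410 and 0.563, edgeR), and those with αACBP were -0.27 under CORT and -0.21 under vehicle (SE 0.22 for each).

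Slc1a2, whose product imports glutamate into pericentral hepatocytes, had levels of 132, 132, 109, 71.0 and 151 CPM in Isotype + Vehicle livers and 147, 236, 139.6, 179.8 and 305 CPM in Isotype + CORT livers. With αACBP and vehicle, livers had 188, 180.1, 112, 208 and 90.9 CPM, and the αACBP + CORT livers 194, 144, 119.8, 128 and 173 CPM. Of the Isotype + CORT livers, 3 lay above every Isotype + Vehicle liver and the other 2 within their range. With CORT under isotype the log2 fold change was 0.76 (SE 0.24, adjusted p = 0.0798, edgeR), which met neither threshold, and over the alternatives the adjusted p ran from 0.0367 to 0.218. Under αACBP the CORT value was -0.04 (SE 0.24), and the interaction of -0.80 (SE 0.34, adjusted p = 0.362, edgeR) did not pass.

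Oat had levels of 1099, 1099.9, 1026, 652 and 1128 CPM in Isotype + Vehicle livers and 511, 993, 475, 1089 and 540.3 CPM in Isotype + CORT livers. Livers given αACBP and vehicle had 492, 1106, 508, 804 and 327 CPM, and the αACBP + CORT livers 646, 711, 635, 446 and 1009 CPM. In Isotype + Vehicle 4 livers sat closely together near the top of the range, with replicate 4 well below them, and the highest liver of each other group was at 1009 CPM or above. The log2 fold change was -0.47 with CORT under isotype (SE 0.29, adjusted p = 0.476, edgeR) and -0.63 with αACBP under vehicle (SE 0.29, adjusted p = 0.212), and neither passed.

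Rhbg had the lowest levels of the 10. Its levels were 0.602, 1.47, 1.62, 0.939 and 3.24 CPM in Isotype + Vehicle livers and 0.889, 0, 0.641, 0.196 and 2.06 CPM in Isotype + CORT livers. Under αACBP with vehicle the livers had 0.0558, 0.375, 1.45, 1.16 and 1.16 CPM, and the αACBP + CORT livers 1.14, 0.579, 0.345, 0.296 and 1.51 CPM. Isotype + CORT replicate 2 had 0 counts, Isotype + CORT replicate 4 had 3 and αACBP + Vehicle replicate 1 had 1. The log2 fold change with CORT under isotype was -1.05 with an SE of 1.03 (adjusted p = 0.730, edgeR).

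Lect2 levels were 202, 176, 181, 97.8 and 188 CPM in Isotype + Vehicle livers and 81.6, 114, 198, 197 and 161 CPM in Isotype + CORT livers. With αACBP and vehicle, livers had 78.8, 149, 120.4, 144 and 47.8 CPM, and the αACBP + CORT livers 232, 186, 137, 144 and 152 CPM. The αACBP + Vehicle livers were the lowest on average (108 ± 43.5 CPM), and the other means lay between 150.1 and 169.9 CPM. The log2 fold change was -0.64 with αACBP under vehicle (SE 0.27, adjusted p = 0.170, edgeR) and 0.65 with CORT under αACBP (SE 0.27, adjusted p = 0.300). Both comparisons use the αACBP + Vehicle livers, and neither passed.

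Levels of the genes were also compared liver by liver, as deviations of log2(CPM + 0.5) from the mean of the group, which asks whether a liver that is high for 1 gene of the zone is high for another. Of the 45 pairs of genes, 2 passed a permutation test within groups (100000 permutations, two-sided, adjusted over the 45 pairs), and both correlations were positive. Glul and Slc1a2, the enzyme and the transporter of the glutamine reaction, had a Pearson's r of 0.803 over 20 livers (permutation p = 0.00031, adjusted p = 0.0140) and a Spearman's rho of 0.832 (permutation p = 8e-05, adjusted p = 0.0036). Without the 2 livers farthest from the median of Glul, r was 0.738. Within the groups it was 0.978 in Isotype + Vehicle, 0.689 in Isotype + CORT, 0.984 in αACBP + Vehicle and 0.473 in αACBP + CORT livers. Without both livers that stood apart, r was 0.712 with an adjusted permutation p of 0.185, so that the pair no longer passed.

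Axin2 and Tbx3 had an r of 0.730 (permutation p = 0.00097, adjusted p = 0.0218) and a rho of 0.719 (permutation p = 0.00181, adjusted p = 0.0407). Without the 2 livers farthest from the median of Axin2, r was 0.736, and without both livers that stood apart it was 0.833 (adjusted permutation p = 0.0239). Within the groups r was 0.888 with vehicle and 0.674 with CORT under isotype, and 0.630 with vehicle and 0.871 with CORT under αACBP. The median r of the 45 pairs was 0.202. Levels of 1 liver share a library, its depth and its normalization, and the part of these in the correlations was not tested.

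**Figure D3:**
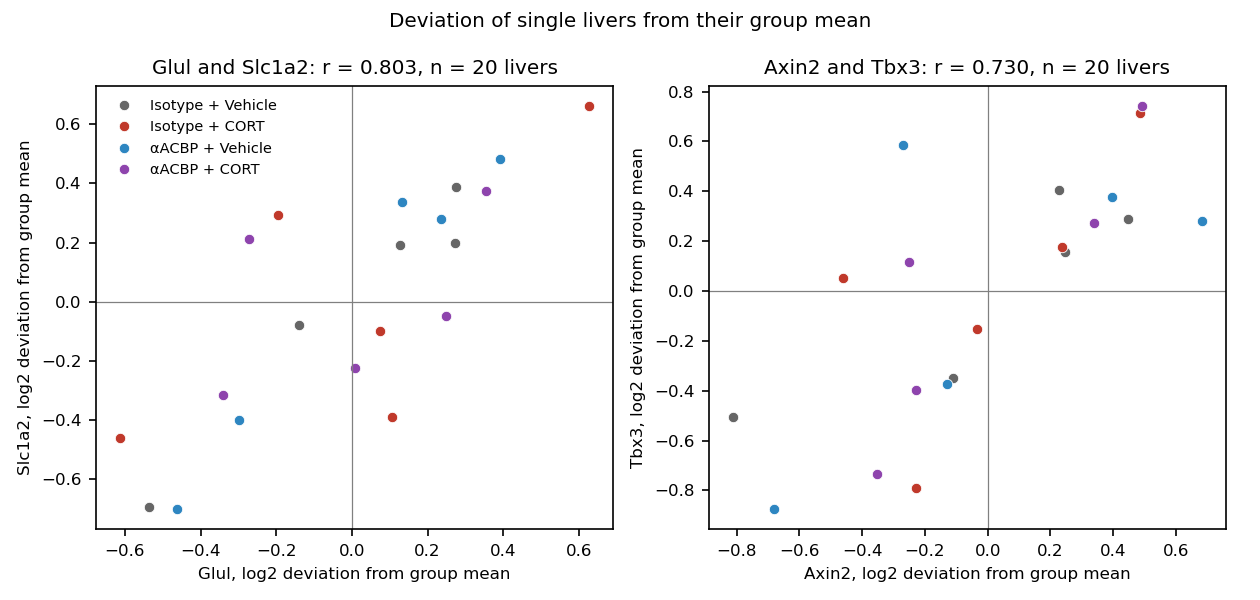
Deviation of each liver from its group mean on the log2(CPM + 0.5) scale, for Glul (x) and Slc1a2 (y) on the left and for Axin2 (x) and Tbx3 (y) on the right, coloured by group. Livers high for 1 gene of a pair tended to be high for the other, with r = 0.803 and r = 0.730 over 20 livers.

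Among the genes upstream of these targets, 1 of the 10 Wnt and R-spondin receptors tested was called with CORT under isotype, beside 1.94% of all genes. This was Fzd4, a Frizzled receptor of Wnt ligands. Of the 10 receptors, 6 were higher and 4 lower in that comparison, with log2 fold changes from -0.82 to 1.00. Fzd4 was at 16.6 ± 2.17 CPM in Isotype + Vehicle and 33.3 ± 10.7 CPM in Isotype + CORT livers, at 15.8 ± 4.58 in αACBP + Vehicle and at 21.3 ± 5.12 in αACBP + CORT livers. The rise of Fzd4 with CORT under isotype was 2.00-fold (log2 fold change 1.00, SE 0.23, adjusted p = 0.0140, edgeR), just at the limit on the fold change. Fzd4 was called without both livers that stood apart too (1.05, adjusted p = 0.0189, edgeR). No receptor was called in the other comparisons by edgeR. At an unadjusted p of 0.05, 3 of the 10 receptors passed for CORT under isotype (15.6% of all genes) and 2 for αACBP under CORT (12.5%). There were 3 for CORT under αACBP (12.7%), 2 for αACBP under vehicle (20.6%), 1 for αACBP + CORT against Isotype + Vehicle (7.59%) and 1 for the interaction (10.6%).

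None of the 7 tested Wnt ligands and R-spondins was called in any comparison by edgeR, and at an unadjusted p of 0.05 there were 2 for CORT under isotype (15.6% of all genes), 1 for αACBP under CORT (12.5%) and 1 for the interaction (10.6%). The most abundant, Wnt4, was at 8.98 ± 2.32, 8.82 ± 2.54, 5.31 ± 1.79 and 6.99 ± 2.85 CPM in Isotype + Vehicle, αACBP + Vehicle, Isotype + CORT and αACBP + CORT livers. Rspo1, an R-spondin gene singled out here after its values were seen, was listed at 0 counts in all 5 Isotype + CORT livers and lay between 0 and 1.59 CPM in Isotype + Vehicle livers (adjusted p = 0.0763, edgeR). Its levels were low in the αACBP groups too. They ran from 0 to 2.41 CPM with vehicle (median 0) and from 0 to 0.574 CPM with CORT (median 0.193). Of the 14 intracellular components, none was called, with a median log2 fold change of 0.19 for CORT under isotype and 0.31 for αACBP under vehicle, where 0 and 7 had an unadjusted p under 0.05 beside 15.6% and 20.6% of all genes. There were 5 for αACBP under CORT (12.5%), where the smallest adjusted p was 0.0369 (edgeR) at a log2 fold change of 0.82, under the limit. There were 1 for CORT under αACBP (12.7%), 7 for αACBP + CORT against Isotype + Vehicle (7.59%) and 0 for the interaction (10.6%). The most abundant, Dvl2, which carries the signal from Frizzled, was at 304 ± 31.2, 244 ± 53.1, 386 ± 57.4 and 339 ± 67.2 CPM in the same order of groups. Of the 4 secreted antagonists and their receptors tested of 8, none was called or had an unadjusted p under 0.05 in these comparisons, and the most abundant, Kremen1, was between 9.70 ± 2.42 and 12.98 ± 1.29 CPM on average.

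Of the 8 other target genes of the pathway that were tested, none was called by edgeR, 7 were lower and 1 higher with CORT under isotype (median log2 fold change -0.70, 3 with an unadjusted p under 0.05 beside 15.6% of all genes), and 4 were lower and 4 higher with αACBP under vehicle (median 0.05). Notum, which encodes a secreted Wnt inhibitor and was the most abundant, was at 95.1 ± 24.7 CPM in Isotype + Vehicle, 88.5 ± 19.3 in Isotype + CORT, 124 ± 18.8 in αACBP + Vehicle and 103 ± 16.1 in αACBP + CORT livers. Of 20 other pericentral genes, 8 were higher and 12 lower with CORT under isotype, and 3 had an unadjusted p under 0.05 (15.6% of all genes). Changes under the fold limit went both ways, at 0.95 (adjusted p = 0.00155, edgeR) and -0.78 (adjusted p = 0.0103, edgeR). In all comparisons, 1 of the 20 was called, for αACBP under vehicle (1.30% of all genes). Aldh1a1, a retinaldehyde dehydrogenase gene, fell with αACBP under vehicle from 591 ± 146 to 272 ± 67.2 CPM (log2 fold change -1.12, SE 0.29, adjusted p = 0.0270, edgeR), and 17 of the 20 were lower in that comparison (median -0.31). Lower values were not particular to this list there. Of 20 periportal genes 13 were lower (median -0.36), and of 7 hepatocyte markers 5 were (median -0.37), beside 8234 of all 16071 genes.

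Of 20 periportal genes, 1 was called for CORT under isotype (1.94% of all genes), 1 for CORT under αACBP (0.212%) and 1 for αACBP under vehicle (1.30%). At an unadjusted p of 0.05, 7, 3 and 10 passed in these comparisons, beside 15.6%, 12.7% and 20.6% of all genes. Of 12 tested genes of glutamate handling, 1 was called, for CORT under αACBP, and 5, 4 and 3 passed at the unadjusted p. Of 20 periportal genes, Agxt, which encodes the enzyme that detoxifies glyoxylate, fell with CORT under isotype from 600.1 ± 41.2 to 255 ± 119 CPM (log2 fold change -1.24, SE 0.24, adjusted p = 0.00385, edgeR). Gldc, which encodes the glycine-cleaving dehydrogenase, was at 139 ± 33.4 CPM in Isotype + Vehicle, 129 ± 31.9 in Isotype + CORT, 60.6 ± 11.5 in αACBP + Vehicle and 139.7 ± 43.6 in αACBP + CORT livers. It fell with αACBP under vehicle (log2 fold change -1.20, SE 0.21, adjusted p = 0.00314, edgeR) and rose with CORT under αACBP (1.20, SE 0.21, adjusted p = 0.0101), comparisons that share the αACBP + Vehicle livers. Among 12 tested genes of glutamate, glutamine and proline handling, Slc38a3, a glutamine transporter gene, fell with CORT under αACBP from 3646 ± 454 to 1764 ± 684 CPM (log2 fold change -1.05, SE 0.21, adjusted p = 0.0230, edgeR). Under isotype Slc38a3 was at 2261 ± 501 CPM with vehicle and at 1451 ± 181 CPM with CORT, which was not called (-0.64, SE 0.21, adjusted p = 0.0903, edgeR). Without both livers that stood apart the call of Slc38a3 was lost (-0.997, adjusted p = 0.0512, edgeR), while those of Aldh1a1, Agxt and Gldc held.

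**Figure D4:**
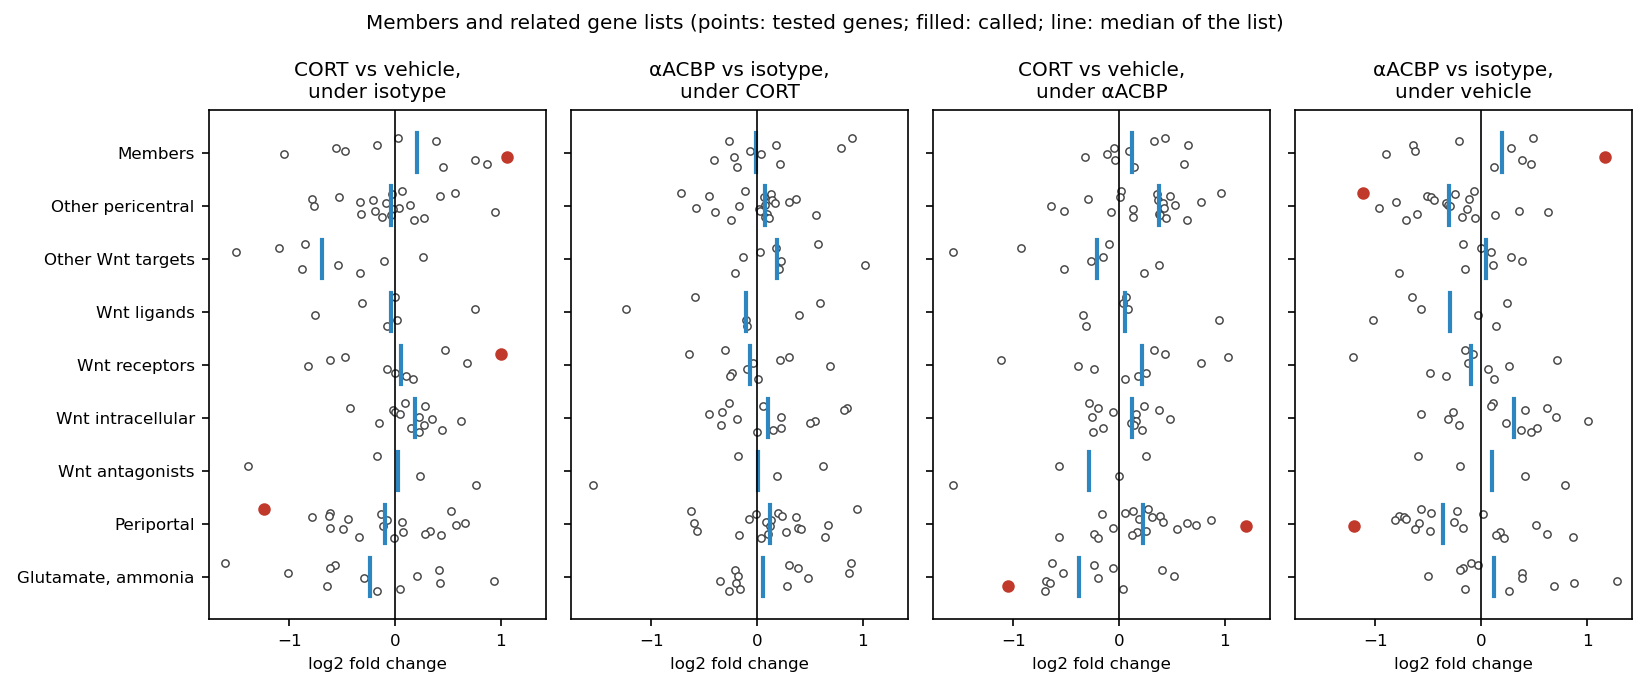
Fitted log2 fold changes (x axis) of the 10 genes and of 8 related gene lists (rows) in the 4 comparisons that differ in 1 treatment, with 1 point per tested gene, filled red where called, and a blue line at the median of the list. Rspo1, which was at 0 in a whole group, is left out. The called points are Rnf43, Fzd4 and Agxt for CORT under isotype, Gldc and Slc38a3 for CORT under αACBP, and Rnf43, Aldh1a1 and Gldc for αACBP under vehicle.

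Markers of other cells moved in the same comparisons as Rnf43, and their part in its change was not tested. With CORT under isotype, all 9 Kupffer cell and macrophage markers had lower values. Of these, 7 were called, beside 1.94% of all genes, among them C1qc (log2 fold change -1.83), Timd4 (-1.61), C1qa (-1.40) and Cd5l (-1.32). Without both livers that stood apart 4 of the 7 were still called, and the calls of Timd4 (-1.73, adjusted p = 0.0510, edgeR), Cd5l (-1.31, adjusted p = 0.0815) and Clec4f (-0.92, adjusted p = 0.0500057) were lost. Their summed level was 453 to 813 CPM in Isotype + Vehicle, 147 to 441 in Isotype + CORT, 578 to 954 in αACBP + Vehicle and 544 to 768 CPM in αACBP + CORT livers. With αACBP under vehicle, 7 of the 9 had lower and 2 higher values (median log2 fold change -0.32, from -1.08 to 0.73). Clec4f was higher there, at 313 ± 66.5 CPM beside 189 ± 34.1 CPM in Isotype + Vehicle livers. None of the 9 was called in that comparison by edgeR, and 2 had an unadjusted p under 0.05 (20.6% of all genes). With αACBP under CORT all 9 had higher values and 3 were called, beside 0.597% of all genes. These were Clec4f (1.42), C1qa (1.24) and Csf1r (1.07). All 6 stellate cell markers had lower values with CORT under isotype and with αACBP under vehicle. In each comparison 1 was called, beside 1.94% and 1.30% of all genes. These were Col3a1 with CORT under isotype (-1.11, adjusted p = 0.0163, edgeR) and Lrat with αACBP under vehicle (-1.01, adjusted p = 0.0332, edgeR). Lrat was not called without both livers (-1.04, adjusted p = 0.0618, edgeR).

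No central vein endothelium marker of 6, sinusoidal endothelium marker of 7, lymphocyte marker of 8 tested, bile duct marker of 6 or hepatocyte marker of 7 was called in any comparison by edgeR, though at an unadjusted p of 0.05 there were 0, 0, 5, 0 and 1 for CORT under isotype and 1, 2, 0, 2 and 3 for αACBP under vehicle, beside 15.6% and 20.6% of all genes. All 8 tested lymphocyte markers had lower values with CORT under isotype (median log2 fold change -2.21). Their list summed to 17.7 to 30.9 CPM in Isotype + Vehicle, 1.22 to 11.5 in Isotype + CORT, 11.5 to 31.2 in αACBP + Vehicle and 4.19 to 17.6 CPM in αACBP + CORT livers, and its part in the change of Rnf43 was not tested. No marker of these lists was at 0 throughout a group. The summed level of the central vein endothelium markers was 19.4 to 24.0 CPM in Isotype + Vehicle, 15.7 to 35.3 in Isotype + CORT, 13.3 to 31.2 in αACBP + Vehicle and 13.2 to 24.6 CPM in αACBP + CORT livers, with Kit the most abundant at 7.27 ± 0.910 to 11.3 ± 4.94 CPM on average. The most abundant markers of other lists were Stab1 for sinusoidal endothelium (116 ± 20.4 CPM in Isotype + Vehicle livers) and Spp1 for bile ducts (66.1 ± 13.1). The summed hepatocyte markers were 68016 to 116720 CPM in Isotype + Vehicle, 83162 to 138847 in Isotype + CORT, 38075 to 91730 in αACBP + Vehicle and 72166 to 105030 CPM in αACBP + CORT livers.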

How the data were processed

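Liver RNA was sequenced as paired-end reads of 150 bases. The authors aligned the pairs with HISAT2 2.2.1 and counted them with HTSeq-count 2.0.2 in union mode with non-unique features, and deposited raw counts per gene and liver. The study's methods name GRCm39, the labels' processing notes mm10; the annotation release and strand setting were not given in the sources used here. Each column was matched to its liver by title, and 5 lines of pairs on no gene (among them 42.3% to 45.2% of pairs on no feature) were left out.

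From these counts, 1 edgeR 4.0.16 model of the 4 groups (R 4.3.3) gave quasi-likelihood tests with TMM normalization, robust estimation, the filter on low counts and no covariates. Genes were kept apart by identifier, and p-values were adjusted over all genes tested. SEs are those of the log2 fold changes. Alternatives were DESeq2 1.42.0, limma voom 3.58.1, other scalings, filters and thresholds, the replicate block and leaving out livers; both livers that stood apart were left out together as a choice made after seeing the data.

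The genes and lists were chosen with earlier results of these data known. Named were the 10 genes in each comparison, of every other list the called genes, at most 4 of largest fold change, and of a list without calls the most abundant gene, except that the gene of the lymphocyte list is not reported here.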

Additional observations from a re-analysis of the deposited data

Results flagged for a closer look

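Among the 40 values tested (10 genes in 4 groups of 5 livers), 3 held a liver far from the rest of its group by Dixon's test, where chance flags about 1 in 20, and all 3 were in Isotype + Vehicle. Oat was at 652 CPM in replicate 4 and at 1026 CPM in the next lowest liver. Lect2 was at 97.8 CPM in the same liver, where the next lowest had 176 CPM. Lgr5 was at 11.6 CPM in replicate 3, and the next highest liver had 8.61 CPM. Replicate 4 is 1 of the livers that stood apart, with 4.84% of its pairs not aligned, and the part of this in the low values was not tested. Without replicate 4 and αACBP + Vehicle replicate 5, the log2 fold change of Oat with CORT under isotype was -0.62 and that of Lect2 with αACBP under vehicle was -0.61, neither past the threshold.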

How the results depend on the processing

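Of the members' log2 fold changes in the comparisons that differ in 1 treatment, 364 of those with 1 liver left out kept their direction and side of the threshold, 4 lost the call and 32 changed sign. Under the other alternatives 426 kept both, 5 lost the call and 5 changed sign. Among these, the settings of unadjusted p and of no limit on the fold change reused the main fit. They could neither change a sign nor lose a call, so their values add nothing to the count that kept both. For CORT under isotype the count of genes called was 1, and it was 0 with voom (Rnf43 at 0.83), 0 with only the groups compared (1.05, adjusted p = 0.0511, edgeR), 0 without both livers that stood apart (0.90) and 0 to 1 with 1 liver left out. For αACBP under vehicle it was 1, and 0 with voom (Rnf43 at 0.99) and without both livers. For αACBP + CORT against Isotype + Vehicle it was 0, and 1 (Tbx3) with the Wald test of DESeq2 and with unadjusted p. For the interaction it was 0, and 1 (Rnf43) with DESeq2 and with unadjusted p, and 0 to 1 with 1 liver left out, the 1 without αACBP + CORT replicate 5. Of the correlated pairs, 2 became 1 without both livers. Of the calls in the other lists, 11 for CORT under isotype became 8 without both livers, 3 for αACBP under CORT stayed at 3, 2 for CORT under αACBP became 1 and 3 for αACBP under vehicle became 2, a choice made after seeing the data. The cause of these shifts was not tested.

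Signs changed for values that were not called. With voom, Axin2 was at -0.11 for CORT under isotype and Oat at -0.15 for CORT under αACBP. Without both livers these were -0.15 and -0.080, and Rhbg was at 0.032 for CORT under αACBP. With 1 liver left out, Axin2 ran from -0.13 to 0.15 for CORT under isotype and Znrf3 from -0.022 to 0.43 for αACBP under vehicle. For αACBP under CORT, Oat ran from -0.24 to 0.13, Znrf3 from -0.33 to 0.066, Rhbg from -0.35 to 0.84 and Tbx3 from -0.0091 to 0.43. For CORT under αACBP, Slc1a2 ran from -0.18 to 0.090, Lgr5 from -0.28 to 0.12, Rhbg from -0.50 to 0.17 and Oat from -0.086 to 0.37.

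With the replicate block the counts of called genes stayed at 1, 0, 0, 1, 0 and 0, with Rnf43 at 1.07 for CORT under isotype and 1.20 for αACBP under vehicle. The numbers were not taken to pair livers, since same-numbered livers had correlations of -0.0999 to 0.0969 over 30 pairs. With at least 10 counts required in every liver, Rhbg could not be fitted. Rhbg had 0 to 54 counts per liver.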
